A study of Tupaia belangeri with 6 samples.

Results

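Ribosomes are built from ribosomal RNA and many ribosomal proteins, each encoded by its own nuclear gene. The mRNAs of these genes are among the most abundant in the cytoplasm of nearly every cell and carry a terminal oligopyrimidine tract through which mTOR signalling sets their translation. Because the spliced mRNA is exported quickly, a library of isolated nuclei holds little of it, and its level is commonly read as a sign of cytoplasmic RNA carried along with the nuclei. Mammalian genomes also carry many processed copies of these genes, so a read can match more than 1 place.

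The genes described here were the 78 of 83605 annotated features of the tree shrew (TS, Tupaia belangeri) whose symbol was RPL or RPS followed by a number and, at most, the letter A, X or L and 1 more digit. They comprised 47 genes of the large (RPL) and 31 of the small (RPS) ribosomal subunit. A further 1583 features carried the same symbol with the suffix li and a number, and these are called like-named copies below. The members were measured in single-nucleus RNA-seq of frozen hippocampus from 3 naturally aged TSs with Alzheimer's-like pathology (ALP TSs, labelled AD) and 3 age-matched healthy TSs (control TSs, labelled Normal). Both groups came from 1 aged cohort without a transgene, drug or lesion, and ALP TSs had been picked for poor performance in a pipeline maze. Each library stood for 1 animal, and the sex of the animals was not given per library.

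After the filters of the study, 28233 of 37603 barcodes remained, 14387 from control and 13846 from ALP TSs, with 4159545 to 15412799 UMIs (unique molecular identifiers, 1 per captured RNA molecule) per library. Clusters were named X-like from marker genes, which gave astrocytes (Astro), oligodendrocyte precursors (OPC), oligodendrocytes (Oligo), microglia (Micro), endothelial (Endo), mural and ependymal cells, and granule (Gran), pyramidal (Pyra) and inhibitory (InN) neurons. Neither a member nor a copy was among the variable genes used for clustering. A cluster of 1098 nuclei led by HBG, a haemoglobin gene, and by mitochondrial genes, and a cluster of 1845 nuclei with a median of 715 UMIs, of which 1202 came from control 3, were left unnamed and are called HBG-led and low-depth. At most 0.465% of the barcodes of a library recurred in another. LINC-FRMD8-1, an intergenic feature, took 13.0% to 27.3% of the UMIs of a library and was lowest in control 1.

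The members held 64212 of 62553881 UMIs in the kept nuclei, or 0.103%, with 49.5% of them on large and 50.5% on small subunit genes. These UMIs were spread very unevenly. No UMI was found for 40 of the 78 members, 19 had 1 to 99 UMIs and 13 had at least 1000, and those 13 held 96.1% of the total. A count of 0 over all kept nuclei allowed at most 0.0480 CPM (counts per 1e6 UMIs; 3 counts over all nuclei), and this limit covers counting error only. The like-named copies held 349655 UMIs (0.559%), 5.45 times as many as the members, on 483 of the 1583 features. Members and copies together took 0.662% of the UMIs.

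RPS21, a small subunit protein gene, led with 8157 UMIs, and its level over all nuclei was 123, 186 and 120 CPM in control and 156, 92.1 and 151 CPM in ALP libraries. RPS14, whose loss of 1 allele causes a macrocytic anaemia in humans, followed with 7104 UMIs and 120, 129 and 123 against 103, 96.3 and 116 CPM. RPS25, which some viral RNAs need for internal initiation, held 6369 UMIs. These 3 genes made up 33.7% of all member UMIs. Among large subunit genes RPL13 (5806 UMIs), RPL35A (5666), RPL11 (5316) and RPL34 (5160) led, and RPL11 encodes a protein that binds MDM2 when ribosome assembly is disturbed. These ranks refer to UMIs assigned to a feature and not to transcripts per gene locus.

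**Figure D1:**
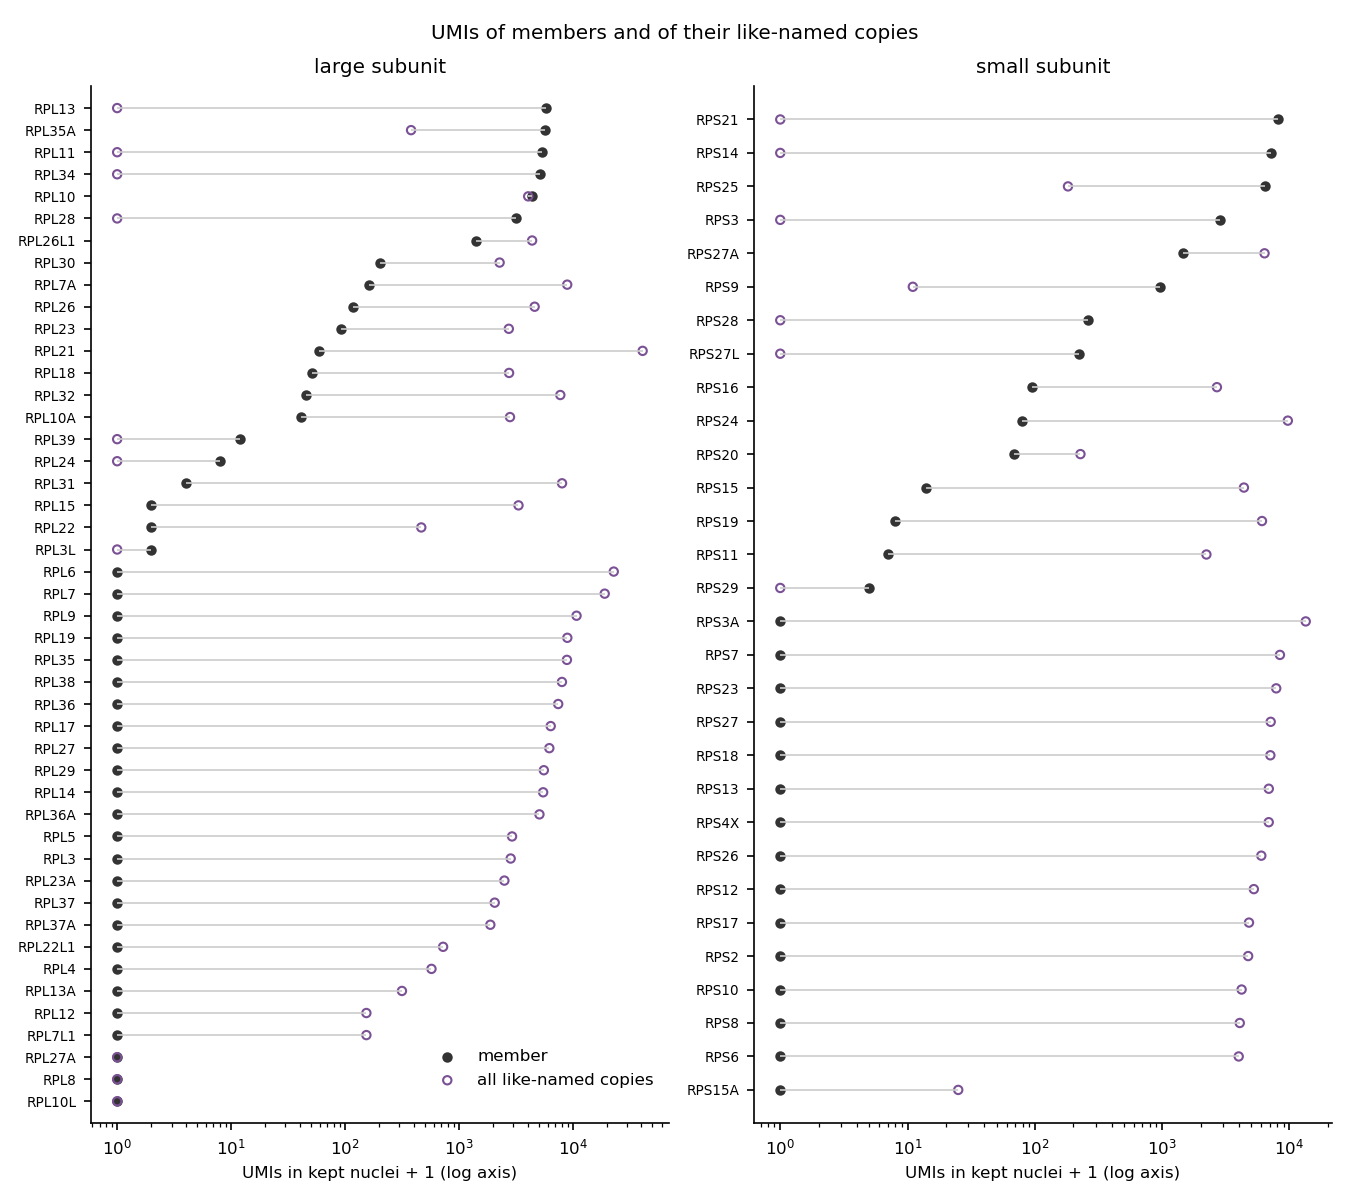
UMIs in the kept nuclei of all 6 libraries for the members described here (filled) and for the sum of the like-named copies of each (open), on a log axis of UMIs + 1, with large subunit genes on the left and small subunit genes on the right. Members with no UMI stand at the left edge, and 37 of those 40 have copies with UMIs.

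The members at 0 included RPS6, whose protein is phosphorylated downstream of mTOR, RPL3, which lies near the peptidyl transferase centre, RPL5, RPS3A, RPL7 and RPS27. Of these 40 members, 37 had at least 1 copy with UMIs, and in 30 a single copy held 1000 UMIs or more. RPL19 had none and its copy RPL19li1 8914, RPL35 none and RPL35li9 8858, and RPS7 none and RPS7li1 8408. RPL27A, RPL8 and RPL10L had UMIs neither on the member nor on a copy. Conversely, 8 of the 13 members with at least 1000 UMIs, among them RPS21, RPS14, RPL13 and RPL11, had no UMI on any copy. Reads that match several features are not counted by the counting software, so a level of a member with copies is uncertain, and a value for such a gene refers to the feature of that name. Whether a like-named copy with many UMIs is a processed copy or the working gene was not tested. A count of 0 for a member thus does not show that the gene is silent.

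Among the detected members with the fewest UMIs were RPL22, RPL15 and RPL3L with 1 UMI each, RPL31 with 3 and RPS29 with 4. RPL3L is a muscle paralogue of RPL3. RPL26L1 had 1425 UMIs against 116 for RPL26, and RPS27L, a p53-responsive paralogue, had 221 against 0 for RPS27. RPL7L1, RPL10L and RPL22L1 were at 0, as were RPL7 and RPL3, whereas RPL10 had 4408 UMIs and a further 4054 on its copies. RPS27L depended on the library, with 15, 3 and 104 UMIs in control and 6, 77 and 16 in ALP libraries. Control 3 and ALP 2 thus held most of its UMIs.

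The share of member UMIs differed widely between cell classes. It was highest in Endo-like nuclei, with 0.795%, 0.893% and 0.628% in control and 1.43%, 0.768% and 1.07% in ALP libraries, a mean of 0.932% ± 0.287 (SD, n = 6). HBG-led nuclei followed with 0.605%, 0.652% and 0.599% against 1.28%, 0.80% and 0.844%, a mean of 0.797% ± 0.258 (SD, n = 6). Every other class lay far below, from 0.194% ± 0.0759 (SD, n = 6) in Ependymal-like to 0.0652% ± 0.00572 (SD, n = 6) in InN-like nuclei. Relative to the mean of the 7 neuronal and glial classes of the same library, Endo-like nuclei stood at 11.1 ± 2.85 and HBG-led nuclei at 9.55 ± 2.70 (fold, SD, n = 6), both higher in all 6 libraries.

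**Figure D2:**
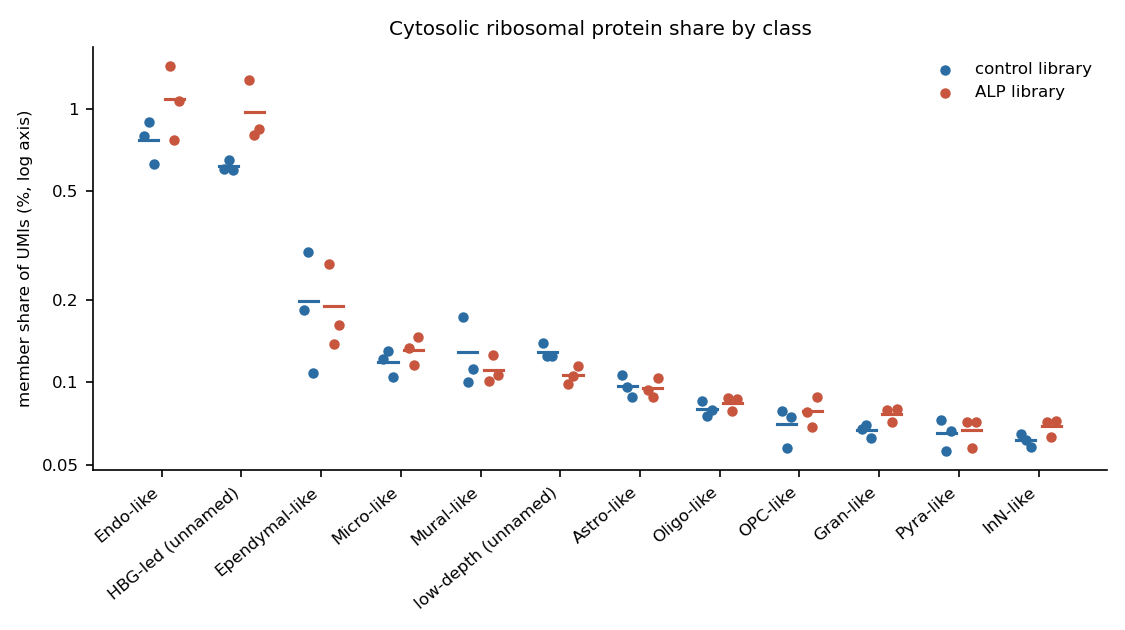
Percent of UMIs on the 78 members (log axis) in each class of nuclei, with 1 point per library, control in blue and ALP in red, and a line at the mean of 3 libraries. Endo-like and HBG-led nuclei sit between 0.599% and 1.43%, above all other classes in every library.

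Below these, the order was Ependymal-like, Micro-like (0.125% ± 0.0148), Mural-like (0.120% ± 0.0278), low-depth (0.118% ± 0.0149), Astro-like (0.0961% ± 0.00759), Oligo-like (0.0821% ± 0.00497), OPC-like (0.0743% ± 0.0106), then granule (0.0717% ± 0.00667), pyramidal (0.0660% ± 0.00741) and inhibitory neurons (SD, n = 6 for each). Of the 11 pairs of neighbours in this order, 4 kept their order in all 6 libraries: HBG-led over Ependymal-like, Ependymal-like over Micro-like, low-depth over Astro-like and Astro-like over Oligo-like. Each of these gave p = 0.0313 in an exact sign-flip permutation test over 6 libraries (two-sided), the smallest it can give, or 0.0859 after Benjamini-Hochberg adjustment over 11 pairs. The Astro-like class pooled unlike clusters, 1 of 2103 nuclei at 0.0829% ± 0.00740 and 1 of 1132 nuclei at 0.130% ± 0.0337 (SD, n = 6). The larger lay within the means of the Oligo-like clusters (0.0731% to 0.0953%), and the smaller had a mean above that of low-depth nuclei. The steps from low-depth to Astro-like and from Astro-like to Oligo-like nuclei thus do not hold for each cluster. Mural-like nuclei also pooled unlike clusters, at 0.154% ± 0.0508 (SD, n = 4) and 0.0901% ± 0.0112 (SD, n = 6). An InN-like cluster of 59 nuclei stood at 0.122% ± 0.0271 (SD, n = 3), against 0.0614% to 0.0715% in the other InN-like clusters. Endo-like exceeded HBG-led nuclei in 5 of 6 libraries by 0.135 percentage points ± 0.112 (SD, n = 6; exact permutation p = 0.0938, adjusted 0.172). Micro-like, Mural-like and low-depth nuclei changed places between libraries, as did OPC-like nuclei and the neuronal classes. The least counted value, control 2 in Mural-like nuclei, rested on 34 member UMIs and had a 95% exact Clopper-Pearson interval of 0.0697% to 0.141%, which covers counting error only.

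The order below Endo-like and HBG-led nuclei did not hold in a narrow range of depth, 1000 to 2000 UMIs. That range lies below the median depth of granule, pyramidal and inhibitory neurons (2900.5, 4193 and 4242 UMIs), so it takes only their shallower nuclei. Among nuclei with 1000 to 2000 UMIs the share was 0.831% ± 0.412 (SD, n = 5) in Endo-like and 0.777% ± 0.213 (SD, n = 6) in HBG-led nuclei, again the highest means. Inhibitory neurons, the lowest class over all depths, then stood at 0.133% ± 0.0253 (SD, n = 5), beside 0.132% ± 0.0252 in Micro-like and 0.118% ± 0.0512 in Ependymal-like nuclei. OPC-like nuclei were lowest with 0.0821% ± 0.0120 (SD, n = 6). Control 2 gave no value there in the Mural-like, Ependymal-like, granule and inhibitory neuron classes, nor did ALP 3 in the Endo-like class.

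Endo-like and HBG-led nuclei were few and held a large part of the signal. They made up 5.37% of nuclei and 3.35% of all UMIs but 25.6% of the member UMIs. A member share over 1% was found in 111 of 417 Endo-like nuclei (26.6%) and 356 of 1098 HBG-led nuclei (32.4%), against 6 of 3235 Astro-like, 1 of 1394 Micro-like and none of 8152 Oligo-like, 2666 OPC-like, 2672 granule, 2949 pyramidal or 2499 inhibitory neuron nuclei. Per library, 13.0% to 52.0% of Endo-like and 15.1% to 52.1% of HBG-led nuclei exceeded 1%. The median nucleus held 0.527% in the Endo-like and 0.680% in the HBG-led class, and 0.0614% to 0.0781% in the Astro-like, OPC-like, Oligo-like and neuronal classes. In Mural-like, Micro-like, low-depth and Ependymal-like nuclei it held 0.0826%, 0.109%, 0.119% and 0.126%. The tenth of Endo-like nuclei with most member UMIs held 34.5% of the member UMIs of that class, and 31 of the 417 nuclei held none.

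Other measures moved with the member share across classes. The mitochondrial share was 0.305% in Endo-like and 0.755% in HBG-led nuclei, 9.91 and 24.5 times the mean of neurons and glia, although mitochondrial genes were among those that set the HBG-led cluster apart. LINC-FRMD8-1, the most counted feature, took 16% and 13.5% of UMIs there, 0.779 and 0.658 times the mean of neurons and glia. The like-named copies, whose counts are not independent of the members because reads matching both are dropped, stood at 7.11 and 6.11 times that mean. Mitochondrial ribosomal protein genes, of which 75 were annotated, stood at 1.65 and 2.37 times it, and 34 other genes of translation at 3.26 and 3.83 times. Over the 12 classes, Spearman's rho with the member share was 0.972 for the mitochondrial share, 1.00 for the copies and -0.434 for LINC-FRMD8-1, but the points share libraries and the denominator. Median UMIs per nucleus in Endo-like and HBG-led nuclei were 0.473 and 0.363 times those of neurons and glia, and the part of depth and of RNA from other cells in the class differences was not tested.

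Mature neuronal mRNAs of a fixed list took 0.731% of UMIs in HBG-led nuclei against 0.221% in Pyra-like and 0.119% in inhibitory neurons. CAMK2A, SLC17A7 and SNAP25, markers of excitatory neurons and of synapses, were also detected as markers of that cluster, which was left unnamed because its leading genes were others. In Endo-like nuclei 8 of 10 endothelial markers defined the cluster. The summed level of the listed markers was 0.700% to 1.02% of UMIs in every library, against 0.00169% to 0.0313% in each other class and library. The cluster was named from these markers, so their excess is no check of its name. No cell type lacks ribosomes, so free RNA could not be estimated from the members themselves.

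Thinning each nucleus to 500 UMIs, which left out no Endo-like nucleus, gave a member UMI in 80.0% ± 5.77 of Endo-like and 89.7% ± 2.55 of HBG-led nuclei (SD, n = 6). The corresponding share was 51.0% in Ependymal-like, 48.1% in Micro-like and 37.4% in Astro-like nuclei, and 29.1% to 31.6% in OPC-like and neuronal nuclei. Without thinning, 90.9% of Endo-like and 90.1% of InN-like nuclei had a member UMI, with medians of 1284 and 4242 UMIs. These classes thus differed at equal depth and hardly at their own depths. Over all nuclei thinned to 500 UMIs, a member UMI was found in 38.8%, 40% and 39.6% of nuclei in control and 37.1%, 34.9% and 38.7% in ALP libraries. The groups did not overlap and differed by -2.57 percentage points (exact permutation p = 0.1, the smallest possible), but thinned to 1000 UMIs the difference was 0.162 percentage points (exact permutation p = 1). Thinning to 1000 UMIs left out 1178 control and 210 ALP nuclei of the low-depth class, and 431 and 966 of the Oligo-like class. It also left out 650 of 1098 HBG-led nuclei. The differences at 500 and 1000 UMIs thus rest on unlike sets of nuclei. By class the difference at 500 UMIs was positive in the glial, granule, inhibitory neuron and HBG-led classes, from 0.110 (Astro-like) to 6.32 (Micro-like). In the Endo-like, Mural-like, Ependymal-like, Pyra-like and low-depth classes it was negative, from -8.43 (Ependymal-like) to -0.162 (Pyra-like). The part of class makeup in the value over all nuclei was not tested.

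The excess in Endo-like nuclei was common to most members with enough UMIs to be followed. Of the 13 members with at least 1000 UMIs, 11 stood over 5-fold above the mean of neurons and glia, from 8.43-fold for RPS21 to 17.9-fold for RPS25, and all 11 did so in 6 of 6 libraries, with a lowest value in a single library of 5.67-fold for RPS21. RPS25 reached 1297 ± 391 CPM in Endo-like nuclei against 72.4 ± 8.78 CPM in neurons and glia, and RPS14 1399 ± 511 against 79.4 ± 8.29 CPM (SD, n = 6). RPL10, which joins the large subunit late in its assembly, stood at 889 ± 322 against 57.8 ± 18.5 CPM. RPS3, whose protein lies at the mRNA entry channel, stood at 456 ± 158 against 33.5 ± 3.23 CPM. In HBG-led nuclei these members also stood above neurons and glia, for example 7.98-fold for RPL11 and 16-fold for RPS14.

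**Figure D3:**
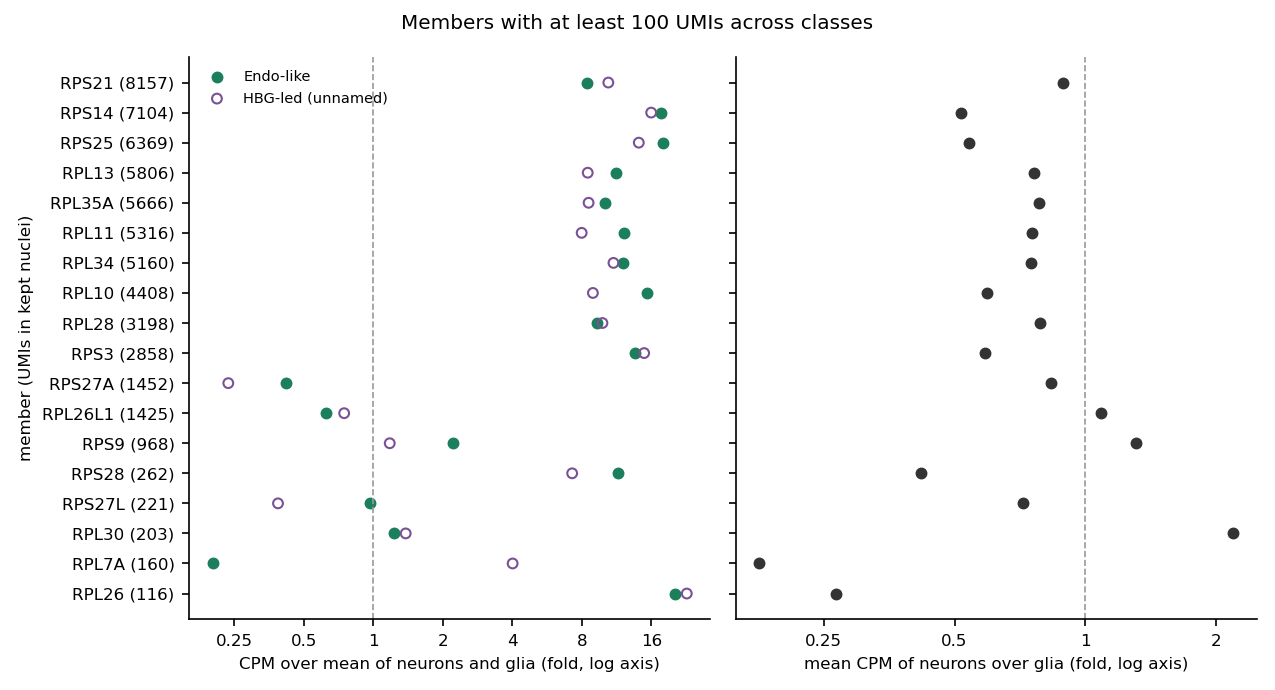
Fold of mean CPM over 6 libraries for members with at least 100 UMIs, on log axes with a dashed line at 1. The left panel gives Endo-like (filled) and HBG-led (open) over the mean of neurons and glia, and the right panel neurons over glia; RPS27A, RPL26L1, RPS27L and RPL7A stand at or left of 1 in Endo-like nuclei, whereas the most counted members stand between 8.43 and 17.9.

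The remaining 2 of these 13 members went the other way. RPS27A, which encodes ubiquitin fused to a small subunit protein, stood at 10.8 ± 12.6 CPM in Endo-like nuclei against 25.8 ± 10.6 in neurons and glia, lower in 6 of 6 libraries, on 14 UMIs. RPL26L1 stood at 13.8 ± 16.9 against 22.1 ± 11 CPM, lower in 5 of 6 libraries, on 17 UMIs. Both had UMIs in the Endo-like nuclei of all control libraries and none in those of the ALP libraries. Their copies behaved otherwise, since RPS27Ali1 stood 14.9-fold and RPL26L1li1 2.75-fold above neurons and glia. Among less counted members RPL7A had 1 UMI in Endo-like and 107 of its 160 UMIs in Oligo-like nuclei, whereas its copy RPL7Ali3 stood at 8.46-fold in Endo-like nuclei. RPS9, a small subunit protein gene, was 2.22-fold higher in Endo-like nuclei and 1.18-fold in HBG-led nuclei.

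Of the 49 copies that led their family with at least 1000 UMIs, 41 stood 7.11- to 28.6-fold higher in Endo-like nuclei and 5 at most 1.2-fold, with a median of 11.4-fold. RPL19li1 stood at 13.4-fold, RPL35li9 at 12-fold and RPS7li1 at 10.7-fold, close to the members RPL11 (12.2-fold) and RPL34 (12-fold). The exceptions were RPL6li41 (0.502-fold), RPL21li159 (0.572-fold), RPL7li83 (0.221-fold), RPL31li18 (0.534-fold) and RPS3Ali71 (1.17-fold). RPL6li41 was the most counted copy of all, with 12172 UMIs.

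Between neurons and glia the members differed less. The share was lower in neurons in all 6 libraries, with a log2 ratio of neurons over glia of -0.475 ± 0.0196 (control) and -0.429 ± 0.0527 (ALP; SD, n = 3), and the difference between groups of 0.0462 gave p = 0.3 (exact permutation test, two-sided, smallest possible 0.1). In nuclei with 1000 to 2000 UMIs, fewer than the median of any neuronal class, the share was not lower in neurons throughout. The log2 ratio of neurons over glia there was 0.0649 ± 0.140 (SD, n = 5, without control 2) and was below 0 in 2 of 5 libraries. Thinned to 500 UMIs, a member UMI was found in 29.1% to 31.3% of neuronal and 31.6% to 48.1% of glial nuclei (class means over 6 libraries). Thinning takes nuclei of all depths and keeps the member share of each, so it is no check of the result between 1000 and 2000 UMIs. The values that follow refer to nuclei of all depths. Of the 11 members above, 10 were lower in neurons in 6 of 6 libraries and RPS21 in 5 of 6. RPS14 showed the widest gap with 51.7 ± 4.28 CPM in neurons and 100 ± 11.9 in glia, and RPS25 the next with 48.6 ± 6.70 and 90.2 ± 12.3 (SD, n = 6). RPS21 stood at 97.1 ± 21.8 and 110 ± 15.2 CPM. RPS9, by contrast, had 17.4 ± 5.58 CPM in neurons and 13.4 ± 3.97 in glia, lower in neurons in 2 of 6 libraries.

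The members also kept different proportions to each other in different classes. Among members with at least 10 UMIs in every class, RPL26L1 varied most, with 3.66% of the member UMIs in Gran-like and 0.191% in Endo-like nuclei, a 19.2-fold range. Less counted members had ranges up to 183-fold (RPL7A). Others that varied were RPS14 (15.8% in HBG-led and 7.07% in InN-like nuclei), RPS25 (14.1% in Endo-like and 6.33% in Pyra-like), RPS3 (6.32% in HBG-led and 3.38% in InN-like) and RPL35A (10.6% in InN-like and 5.67% in Mural-like), with 1.86- to 2.23-fold ranges. RPS14 and RPS25 thus had more weight in Endo-like and HBG-led nuclei, where the total was highest, than in any other class. Their weight did not follow the total throughout. In Ependymal-like nuclei, next in total, they held 9.86% and 9.55%, against 11.4% and 9.65% in Astro-like nuclei.

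No difference between ALP and control TSs was detected in the summed share over all nuclei. The share was 0.107%, 0.120% and 0.0979% in control and 0.105%, 0.0878% and 0.109% in ALP libraries, and the groups overlapped (exact permutation p = 0.5, two-sided). Within classes they overlapped in 9 of 12. The exceptions were HBG-led nuclei, with 0.975% ± 0.266 in ALP against 0.619% ± 0.0292 in control (SD, n = 3, 1.58-fold), Gran-like nuclei, with 0.0768% ± 0.00454 against 0.0666% ± 0.00363 (1.15-fold), and low-depth nuclei in the opposite direction, with 0.106% ± 0.00806 against 0.130% ± 0.00864 (0.819-fold). Each gave p = 0.1 in the exact permutation test, the smallest that 3 against 3 can give, and 0.4 after adjustment over the 12 classes. Without ALP 1 the difference in HBG-led nuclei fell from 0.356 to 0.203 percentage points. In Gran-like nuclei with 1000 to 2000 UMIs the difference had the opposite sign (-0.0117 percentage points). In HBG-led nuclei the mitochondrial share of ALP 1 (1.27%) was also the highest, against 0.480% to 0.740% in the others, and its part was not tested. Endo-like nuclei stood at 1.09% ± 0.333 in ALP and 0.772% ± 0.134 in control, with overlap (exact permutation p = 0.3), on 25 to 189 nuclei per library, and the difference of 0.320 percentage points was 0.149 without ALP 1.

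With the copies added, the share over all nuclei was 0.732%, 0.716% and 0.682% in control and 0.615%, 0.589% and 0.640% in ALP libraries, so that every control library lay above every ALP library (exact permutation p = 0.1). The direction was that of the members alone, but without overlap. LINC-FRMD8-1 took 21.0% to 27.3% of the UMIs in ALP and 13.0% to 22.5% in control libraries and is part of the same total. Of the UMIs outside it, members and copies took 0.842%, 0.923% and 0.847% in control and 0.828%, 0.746% and 0.880% in ALP libraries, and the groups then overlapped (exact permutation p = 0.4). A sum over all nuclei does not by itself separate fewer nuclei of a class from less RNA per nucleus. Endo-like nuclei numbered 189, 40 and 77 of 7022, 1614 and 5751 kept nuclei in control libraries. In ALP libraries they numbered 25, 49 and 37 of 3927, 5217 and 4702. HBG-led nuclei numbered 155, 186 and 291 in control and 119, 148 and 199 in ALP libraries. The part of class makeup in the summed share was not tested.

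Gene by gene, no member passed the test between ALP and control TSs. The UMIs of a class were added up within each library and tested with edgeR's quasi-likelihood method, and a gene was called at a Benjamini-Hochberg adjusted p under 0.05 over all genes of the class with a log2 fold change beyond 0.25. Over all nuclei 23 members had enough UMIs to be tested and edgeR called 0, with an unadjusted p under 0.05 in 8, while DESeq2 called 1 (RPS9). In that test 0% of all 22749 genes were called. By class, 134 pairs of member and class from 16 members were tested and edgeR called 0, with an unadjusted p under 0.05 in 36, while DESeq2 called 2. The share of all genes called was 0.128% in Astro-like, 1.49% in OPC-like, 4.97% in Oligo-like, 0.866% in Micro-like, 1.67% in Gran-like, 0.458% in InN-like and 0.0663% in HBG-led nuclei, and 0% in Endo-like, Mural-like, Ependymal-like, Pyra-like and low-depth nuclei. A count of 0 among 6 to 15 tested members per class is close to this background. An unadjusted p under 0.05 was found in 26.9% of the pairs of member and class and 34.8% of the members over all nuclei, against 16.4% of all pairs of gene and class and 23.4% of all genes.

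The direction of single members nevertheless repeated between classes, which share their animals. In 40 of the 134 pairs (29.9%) the groups of 3 did not overlap, 28 higher and 12 lower in ALP, against 20.7% of all pairs of gene and class. Over all nuclei 5 of 23 members (21.7%) did not overlap, against 27.2% of all genes. The median log2 fold change of the tested members was 0.693 in HBG-led, 0.504 in Endo-like, 0.484 in InN-like and 0.325 in Gran-like nuclei, -0.292 in low-depth nuclei and -0.0888 to 0.137 in the others, while the median of all genes lay between -0.0274 and 0.0110 in these classes.

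**Figure D4:**
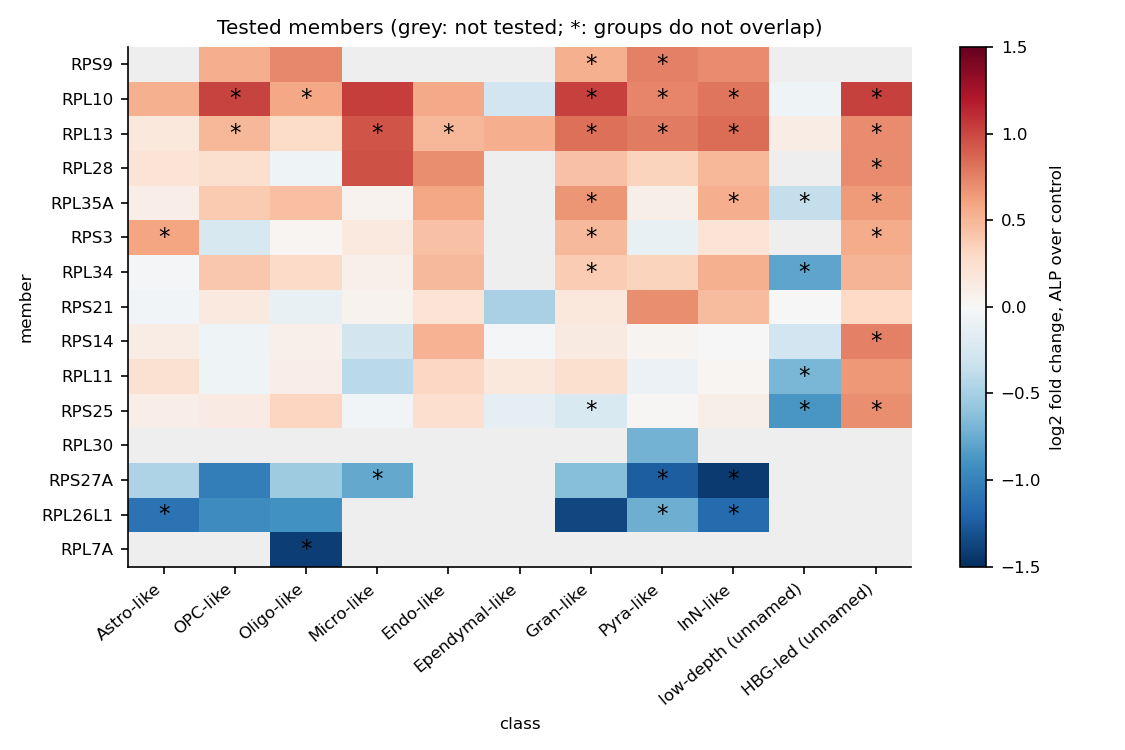
Log2 fold change of ALP over control TSs (color, red higher in ALP) for members tested in at least 1 class, from edgeR; grey cells were not tested and a star marks groups of 3 that did not overlap. RPL13 is positive in 11 of 11 classes, and RPS27A and RPL26L1 are negative in all 7 and 6 classes in which they were tested, but no cell passed the adjusted threshold.

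RPL13 and RPL10 stood higher in ALP TSs in most classes. The CPM given here are scaled by the TMM factors of each class. RPL13 in InN-like nuclei stood at 49.6, 44.9 and 44.0 CPM in control and 82.8, 77.2 and 88.7 CPM in ALP libraries, a log2 fold change of 0.84 (SE 0.15, edgeR adjusted p = 0.0505). Every ALP value exceeded every control value, and the adjusted p lay just above the threshold. RPL13 was called there in 7 of 15 alternatives, with adjusted p from 0.00156 to 0.240. In Gran-like nuclei RPL13 stood at 58.6, 53.0 and 50.3 against 113, 87.3 and 91.3 CPM (log2 fold change 0.82, SE 0.19, edgeR adjusted p = 0.0557), called in 4 of 15 alternatives (adjusted p from 0.0380 to 0.249). Its groups also did not overlap in Pyra-like (0.78), Micro-like (0.94), HBG-led (0.70), Endo-like (0.50) and OPC-like nuclei (0.49, all log2 fold changes). In HBG-led and Endo-like nuclei RPL13 lay close to the median of all tested members given above. It was positive in 11 of 11 classes and had an unadjusted p under 0.05 in 6, and over all nuclei its log2 fold change was 0.39 (SE 0.15, edgeR adjusted p = 0.172).

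RPL10 in Gran-like nuclei stood at 44.6, 9.64 and 29.3 CPM in control and 73.5, 54.3 and 83.0 CPM in ALP libraries (log2 fold change 1.03, SE 0.31, edgeR adjusted p = 0.110), called in 3 of 15 alternatives (adjusted p from 0.0113 to 0.383). The control 2 value rested on 2 UMIs, and control 2 had only 58 Gran-like nuclei. In OPC-like nuclei RPL10 stood at 42.9, 28.1 and 35.4 against 90.2, 45.6 and 94.0 CPM (log2 fold change 1.01, edgeR adjusted p = 0.112). Its groups also did not overlap in InN-like (0.80), Pyra-like (0.73), Oligo-like (0.58) and HBG-led nuclei (1.02, all log2 fold changes). RPL10 has copies with about as many UMIs as itself, and its sum with them was not called either.

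**Figure D5:**
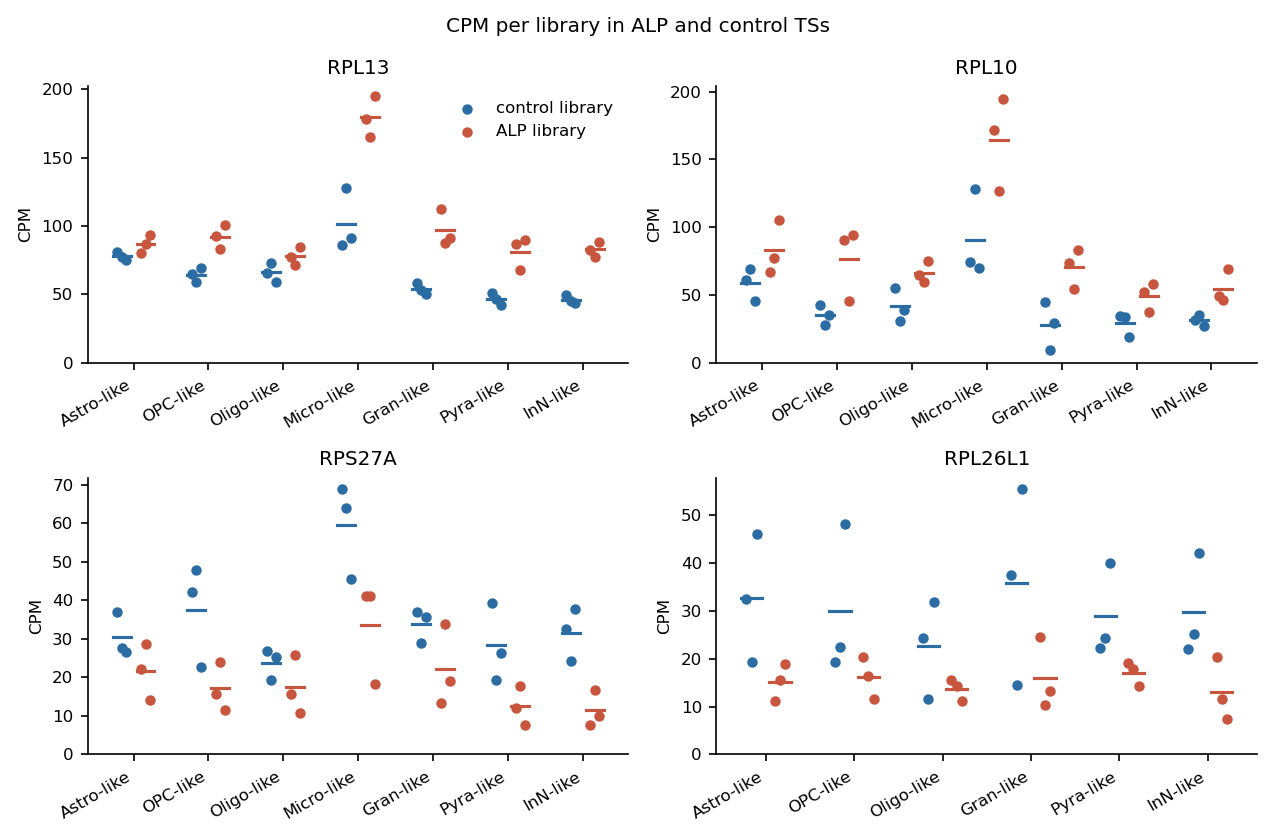
CPM per library, scaled by TMM factors, of RPL13, RPL10, RPS27A and RPL26L1 in the neuronal and glial classes in which each was tested, with control in blue, ALP in red and a line at the mean of 3. In InN-like nuclei RPL13 lies between 44.0 and 49.6 in control and 77.2 and 88.7 in ALP libraries, and RPS27A between 24.4 and 37.7 in control and 7.73 and 16.8 in ALP libraries.

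RPS27A and RPL26L1 stood lower. RPS27A in InN-like nuclei stood at 32.5, 24.4 and 37.7 CPM in control and 7.73, 16.8 and 9.85 CPM in ALP libraries, a log2 fold change of -1.44 (SE 0.32, edgeR adjusted p = 0.0574), called in 5 of 15 alternatives (adjusted p from 0.000974 to 0.254). In Pyra-like nuclei the values were 39.4, 19.4 and 26.3 against 12.1, 17.8 and 7.57 CPM, with a log2 fold change of -1.23 (edgeR adjusted p = 0.163). In Micro-like nuclei the log2 fold change was -0.77. RPL26L1 stood at 32.5, 19.3 and 46.1 against 11.1, 15.5 and 18.9 CPM in Astro-like nuclei (log2 fold change -1.10, edgeR adjusted p = 0.153). It also did not overlap in InN-like (-1.16) or Pyra-like nuclei (-0.73). Control 3 had the highest RPL26L1 value in each class. With the UMIs of the copies added, RPL26L1 turned positive in 5 of its 6 classes and over all nuclei, where it went from a log2 fold change of -0.82 to 0.23. The same addition moved RPS27A in Oligo-like nuclei from -0.53 to 0.02. RPS27A has 6367 UMIs on copies against 1452 of its own. Over the alternatives its weakest log2 fold change was -0.45 in InN-like, -0.38 in Pyra-like, -0.0464 in Micro-like and -0.0396 in Gran-like nuclei.

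Other members did not overlap between the groups in fewer classes. RPL7A in Oligo-like nuclei stood at 13.7, 11.6 and 12.4 CPM in control and 7.11, 3.68 and 4.07 CPM in ALP libraries (log2 fold change -1.41, SE 0.40, edgeR adjusted p = 0.0656), called in 2 of 15 alternatives (adjusted p from 0.0323 to 0.283), and with its copies added the log2 fold change was 0.47. RPS3 in Astro-like nuclei had a log2 fold change of 0.59, RPL35A 0.67 in Gran-like and 0.54 in InN-like nuclei, RPS9 in Pyra-like nuclei 0.76 and RPS14 in HBG-led nuclei 0.76. RPS25 stood lower in Gran-like (-0.23) and low-depth nuclei (-0.87), and RPL34 in low-depth nuclei (-0.79), where RPL13 was the only 1 of 9 tested members with a positive log2 fold change. These members went both ways, however. RPS25 was higher in 7 and lower in 4 classes, without overlap in 1 and 2 of them. For RPL34 the numbers were 8 and 2, without overlap in 1 and 1, and for RPL35A 9 and 1, without overlap in 3 and 1. Over all nuclei RPS16 stood at 2.56, 1.86 and 1.80 against 0.700, 0.863 and 0.544 CPM (log2 fold change -1.56, edgeR adjusted p = 0.0804) on 94 UMIs. RPS9 stood at 10.9, 13.3 and 12 against 23.7, 19.0 and 17.3 CPM (log2 fold change 0.74, edgeR adjusted p = 0.0911). RPS16 has a copy with 2677 UMIs, whereas RPS9 has 10 UMIs on copies.

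The like-named copies gave 13 calls among 850 pairs of copy and class, 3 higher and 10 lower in ALP. RPL7Ali3, which holds 92.4% of the UMIs of the RPL7A copies, was higher in Gran-like nuclei with 92.0, 86.7 and 71.2 CPM in control and 159, 145 and 155 CPM in ALP libraries (log2 fold change 0.87, SE 0.17, edgeR adjusted p = 0.0399). It was also higher in InN-like nuclei (1.04). RPL6li251 was lower in Oligo-like, Micro-like and Gran-like nuclei, with log2 fold changes of -1.44, -2.51 and -2.09. RPL7li12 was lower in Oligo-like and Gran-like nuclei, and RPL31li73 higher in Oligo-like nuclei. In total 989 of 80804 pairs of gene and class (1.22%) were called.

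The other genes of translation were read from a list of 34. RPSA, RPLP0, RPLP1, FAU and EEF1A1 had no UMI and TPT1, which encodes a translationally controlled tumour protein, had 15, so several of the most abundant of these mRNAs were hardly counted under their own symbol. RPLP2, a protein of the ribosomal stalk, had 484 UMIs and 7.88 ± 1.48 CPM (SD, n = 6). Of the list 16 genes were tested in 114 pairs of gene and class, of which edgeR called 0, with an unadjusted p under 0.05 in 20 (DESeq2 called 1). Of all pairs of gene and class, edgeR called 1.22%, and 16.4% had an unadjusted p under 0.05. EEF1A2, the elongation factor of neurons and muscle, stood at 17.2, 13.7 and 12.7 CPM in control and 42.0, 25.9 and 37.0 CPM in ALP libraries in InN-like nuclei (log2 fold change 1.26, edgeR adjusted p = 0.0545). GNB2L1, the older symbol of RACK1, a scaffold on the small subunit, stood at 14.7, 8.37 and 13.7 against 28.7, 24.9 and 32.0 CPM there (log2 fold change 1.19, edgeR adjusted p = 0.0609). Both genes were chosen after their values were seen.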

How the data were processed

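Single-nucleus RNA-seq (10x Genomics) of hippocampus from 3 control TSs and 3 ALP TSs was analysed. The authors deposited UMI counts per feature and barcode for each library, which they made with Cell Ranger against TreeshrewDB. Version 3.1.0 is named in the submitters' processing notes and 6.1.2 in the file headers. The genome build, strand and intron settings are not given in the sources used here. The counts were raw, and reads matching several features are not counted by that software, which bears on genes with copies.

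The filters (200 to 2500 genes, mitochondrial share of 5% or less) left 28233 of 37603, the number of nuclei the study gives. Kept UMIs per library ranged from 4159545 to 15412799. Clusters (scanpy 1.11.5, 2000 variable genes, 30 components, resolution 2) were named from at least 3 detected markers, and clusters with over 15% of marked doublets were left unnamed. Doublets were otherwise kept, with removal as an alternative. The thresholds for naming were set after seeing the data, so shares of nuclei per class depend on these names. The study's own model held the ribosomal fraction as a covariate, which was not used here.

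Shares were compared with exact permutation tests over libraries (scipy 1.17.1, two-sided). Sums of counts over the nuclei of a class in a library (10 nuclei or more) were tested with edgeR 4.0.16 quasi-likelihood (R 4.3.3, TMM, minimum count 10, Benjamini-Hochberg over all genes of a class), with DESeq2 1.42.0 as an alternative. The SE is the log2 fold change divided by the square root of F. The scripts were tested on simulated data, with changes set in genes drawn at random. There edgeR called 11% of 2-fold changes over all nuclei, 25% in Gran-like and Endo-like and 30% in Oligo-like nuclei. Of 3-fold changes it called 59% over all nuclei, 71% in Gran-like, 62% in Endo-like and 77% in Oligo-like nuclei. Most 2-fold changes were thus missed, and recovery for the members themselves was not measured. Members and lists were chosen with earlier results of these data known. Named genes were the 6 members with the highest and, among those detected, the 6 with the lowest CPM, any called member, the 2 largest positive and 2 largest negative changes without overlap in each class, members with the suffix L and their parents, the 6 whose weight varied most between classes, and partners called or fixed by name. A few genes that these rules name are not reported here. Other genes named were chosen after their values were seen. Symbols of 65 of the 78 members were found in the RefSeq table (names only), and no sequence was used.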

Additional observations from a re-analysis of the deposited data

Results flagged for a closer look

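The log2 ratio of the member share in HBG-led over low-depth nuclei was 2.26 ± 0.14 in the control libraries and 3.17 ± 0.46 in the ALP libraries (SD, n = 3). The ratio differed by 0.91 between the groups. It was picked out because each of the 2 classes separated ALP from control libraries, in opposite directions. That choice fixed the lack of overlap of the ratio and with it the exact permutation p of 0.1, the smallest possible. The p-value is therefore no evidence of a difference. The low-depth class drew 1202 of its 1845 nuclei from control 3.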

How the results depend on the processing

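The difference in member share between ALP and control TSs kept its direction in 169 of 194 recomputed values, and the share by class stayed within 1 SD in 61 of 82. The 194 include values with a replicate block, which cannot change the direction. Without an upper limit on genes per nucleus the difference in percentage points turned to 0.00425 over all nuclei, 0.00314 in Astro-like and 0.0216 in Ependymal-like nuclei, and of UMIs outside LINC-FRMD8-1 (chosen after seeing the data) to 0.00111, 0.00689 and 0.00566. With copies added it turned to -0.00427 in OPC-like, -0.0239 in Oligo-like, -0.0129 in Micro-like nuclei, -0.0542 in pyramidal and -0.0272 in inhibitory neurons. In nuclei with 1000 to 2000 UMIs it turned to -0.00261 in OPC-like, -0.00328 in Oligo-like, -0.0150 in Micro-like, -0.0117 in Gran-like and -0.0175 in InN-like nuclei. The change of neurons minus glia turned to -0.0133 with copies added and to -0.0724 in nuclei with 1000 to 2000 UMIs (chosen after seeing the data, without control 2). The fold of a class over neurons and glia moved with the median over nuclei to 1.07 (Astro-like), 7.79 (Endo-like) and 0.843 (InN-like), with copies added to 1.04 (Oligo-like), 7.76 (Endo-like) and 6.67 (HBG-led), outside LINC-FRMD8-1 to 1.24 (Astro-like) and 0.817 (InN-like), and with members among the variable genes to 1.08 (Mural-like). In nuclei with 1000 to 2000 UMIs it moved to 1.04 (Astro-like), 0.833 (Oligo-like), 1.30 (Micro-like), 1.18 (Ependymal-like), 0.923 (Gran-like), 1.30 (InN-like) and 1.07 (low-depth), and without the upper limit to 1.71 (Micro-like), 1.03 (Gran-like), 0.584 (Pyra-like), 0.671 (InN-like) and 1.2 (low-depth). The clustering without the upper limit had no Endo-like class, so its Endo-like and Mural-like values were left out. The difference in detection at 500 UMIs turned, thinned to 1000 UMIs, to 0.162 percentage points over all nuclei, 0.0120 in Endo-like and 1.01 in Pyra-like nuclei, and without thinning to -6.22 in Astro-like, -2.68 in OPC-like, -6.99 in Oligo-like, -0.333 in Micro-like, -2.00 in Gran-like, 8.26 in Pyra-like and 0.371 in low-depth nuclei. Thinning to 1000 UMIs leaves out the nuclei with fewer UMIs, so its values rest on another set of nuclei than those at 500. The cause of these changes was not tested.

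Against 0 called pairs of member and class, DESeq2 gave 2, no normalization factors 2, copies added to their member 2 (chosen after seeing the data), doublets removed 1, upper-quartile factors 1, no filter on low counts 11 and no upper limit on genes 7. Over all nuclei DESeq2 gave 1 and no filter 2. For the list of translation genes the pairs called were 1 with DESeq2, 1 with no factors, 3 with no filter and 2 with no upper limit, and over all nuclei 1 with DESeq2 and 1 with no filter. Among single members, no upper limit turned RPL10 in Ependymal-like to 0.63, RPL34 in low-depth to 0.0343, RPS25 in Gran-like to 0.39 and RPS27L over all nuclei to 0.10, and no filter turned RPL13 in low-depth nuclei to -0.0764 (log2 fold changes). Copies added turned RPL26L1 to 0.0607 (Astro-like), 0.30 (InN-like), 0.0903 (OPC-like), 0.42 (Oligo-like), 0.32 (Pyra-like) and 0.23 (all nuclei), RPL7A in Oligo-like nuclei to 0.47 and RPS27A there to 0.0213.

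Leaving out 1 library gave 0 to 3 called pairs of member and class and 0 to 1 over all nuclei, 0 to 3 and 0 to 1 for the translation list, and differences in share of -0.0129 to -0.00126 over all nuclei, -0.00630 to 0.00276 in Astro-like, -0.0519 to 0.0443 in Ependymal-like, -0.0317 to 0.00460 in Mural-like -0.00261 to 0.00644 in Pyra-like, 0.149 to 0.481 in Endo-like and 0.203 to 0.444 in HBG-led nuclei, the last 2 lowest without ALP 1. The log2 fold change of RPL10 ranged from -0.62 to 0.20 in Ependymal-like and from -0.33 to 0.11 in low-depth nuclei, and that of RPS27L over all nuclei from -1.5 to 1.89. The shared replicate numbers did not pair the libraries (correlations of same-numbered deviations of -0.104 to 0.0547), and with the replicate block 0 members were called. The block leaves the mean difference in share as it was by construction (-0.00768 percentage points over all nuclei), so that value is no check.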

Other observations

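Genes of the mitochondrial ribosome and of ribosome assembly were also tested. Of all pairs of gene and class 1.22% were called, and 4.97% of all genes in Oligo-like nuclei. Of 75 annotated mitochondrial ribosomal protein genes, 272 pairs of gene and class were tested and 1 was called by edgeR, MRPL22 in Oligo-like nuclei, with 27.5, 11.6 and 38.1 CPM in control and 5.69, 12.1 and 8.13 CPM in ALP libraries (log2 fold change -1.73, SE 0.37, edgeR adjusted p = 0.0264). The groups overlapped, since control 2 held 3 UMIs. Of 22 ribosome biogenesis genes, 62 pairs were tested and 0 were called by edgeR. With so few pairs, neither count sets these genes apart from the share over all pairs.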
